A study of Mus musculus with 34 samples.

Results

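T5985871, a screening compound known here by its code name, was 1 of the small molecules found to lower microexon inclusion in a reporter screen. Its effect on endogenous transcripts was measured by polyA+ RNA-seq in N2A cells, a mouse neuroblastoma line, and the members compared were 4 of the 34 libraries of the series: the 1 library of cells given T5985871 at 6.7 µM, and the 3 libraries of cells given the vehicle DMSO. Both groups were treated for 24 h at a final DMSO concentration of 0.4% in the same line, so they differ by the compound alone as far as the labels state. The other libraries hold other small molecules and enter below only as a range of values.

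Microexons are very short exons, most of which keep the reading frame, and many are included in neurons and skipped in other cells. They often encode residues on the surface of proteins that act in vesicle transport, cytoskeletal remodelling and synapse formation. Srrm4 and its relative Srrm3 are the RNA-binding proteins best known for activating them in neural cells, and the polypyrimidine-tract-binding protein Ptbp1 acts against inclusion of many of them.

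Splicing was read as percent spliced in (PSI), the share of an event's junction reads that include the exon, intron or splice site. Exons of up to 27 nt are called microexons and longer ones cassette exons. An event was called changed when the T5985871 library differed by at least 10 PSI from the DMSO mean with a posterior probability above 0.95. That probability was drawn from the reads of each library, so it covers counting error and the spread of the DMSO libraries, but not the spread between T5985871 cultures. With 1 library against 3, an exact permutation test cannot go below p = 0.25, and no p-values are given. The study calls its DMSO controls biological replicates, in a number lower than that of the DMSO libraries used here, and the labels do not say which of these came from separate cultures. Over the events used, the DMSO libraries held 68385315 to 138746045 corrected reads and the T5985871 library 85516577, and 593 to 671 microexons passed the filters in a DMSO library against 567 with T5985871.

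The sequences of the microexons that carry the splicing results are shown first. Of the 24 microexons named below from the assayed genes and the largest changes, 16 had the same length and the same 2 flanking intron lengths as an exon of the GENCODE vM21 annotation, and 15 of those were coding. The 4 coding microexons of the assayed genes and the 9 of the largest decreases follow, 5′ to 3′, with the microexon in capitals between the last 15 nt of the upstream exon and the first 15 nt of the downstream exon. Positions are those of the microexon in GRCm38, the build of that annotation. Every one of these 13 exons has a length divisible by 3.
Mef2d (21 nt, chr3:88161781-88161801, plus strand): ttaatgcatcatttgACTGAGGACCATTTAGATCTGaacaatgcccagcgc
Mast2 (21 nt, chr4:116333413-116333433, minus strand): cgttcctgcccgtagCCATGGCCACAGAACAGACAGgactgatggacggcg
Ergic3 (15 nt, chr2:156015377-156015391, plus strand): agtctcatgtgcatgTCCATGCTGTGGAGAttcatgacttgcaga
Trappc9 (27 nt, chr15:73042177-73042203, minus strand): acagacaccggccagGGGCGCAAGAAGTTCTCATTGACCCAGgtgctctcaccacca
Bbs9 (15 nt, chr9:22648020-22648034, plus strand): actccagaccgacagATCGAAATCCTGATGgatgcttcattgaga
Herc4 (24 nt, chr10:63303845-63303868, plus strand): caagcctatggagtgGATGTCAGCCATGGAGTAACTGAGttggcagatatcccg
Dock4 (27 nt, chr12:40794597-40794623, plus strand): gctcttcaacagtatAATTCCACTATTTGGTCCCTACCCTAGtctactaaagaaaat
Celsr3 (15 nt, chr9:108838760-108838774, plus strand): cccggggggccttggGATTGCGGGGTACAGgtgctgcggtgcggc
Gopc (24 nt, chr10:52357342-52357365, minus strand): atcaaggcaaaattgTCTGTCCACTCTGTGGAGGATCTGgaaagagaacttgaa
Abi1 (15 nt, chr2:22963214-22963228, minus strand): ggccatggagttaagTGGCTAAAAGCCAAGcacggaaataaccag
Vav2 (15 nt, chr2:27284839-27284853, minus strand): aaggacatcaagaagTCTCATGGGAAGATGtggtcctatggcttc
Git2 (6 nt, chr5:114753148-114753153, minus strand): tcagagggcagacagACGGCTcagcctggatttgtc
Synj1 (24 nt, chr16:90971564-90971587, minus strand): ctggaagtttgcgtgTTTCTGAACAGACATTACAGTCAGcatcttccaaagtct

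Microexon inclusion was mainly lower in the T5985871 library. Of 545 microexons measured, 115 in 108 genes fell and 5 rose, which is 21.1% and 0.917% of those tested. Among 54148 cassette exons, 1298 fell (2.4%) and 385 rose (0.711%). Over exons of all lengths the shares were 2.58% and 0.713%. Thus 95.8% of the called microexons and 77.1% of the called cassette exons went down. The starting levels bear on these shares, since an exon above 90 PSI in DMSO could not rise by the 10 PSI needed. That held for 50171 of the cassette exons and 198 of the microexons. The classes were also not filtered alike. Events that the authors' splicing software types as microexons were exempt from a filter on read balance that cassette exons had to pass. The median fall of a decreased microexon was 24.9 PSI, against 14.6 PSI for a decreased cassette exon. The falls ran from 10.1 to 62.2 PSI, and 40 microexons lost more than 30 PSI. In all 115, the T5985871 library lay below every DMSO library that passed. The limit on the posterior largely ensures this, so it adds no separate support. Between DMSO libraries, the typical (median) SD of a microexon was 0.66 PSI, and 95% of microexons had an SD of up to 5.48 PSI. Those figures include 210 microexons at or below 10 PSI and 198 above 90 PSI, near the ends of the scale. Among the 15 largest falls the DMSO SD ran from 0.92 PSI (Abi1) to 10.6 PSI (Cdon).

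**Figure D1:**
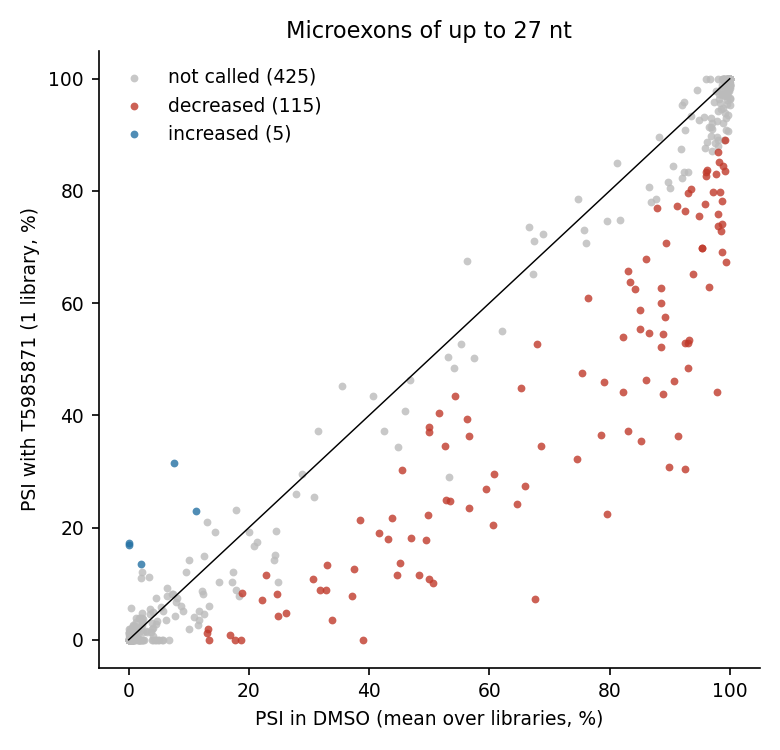
PSI of each of the 545 microexons in DMSO (x axis, mean over libraries, percent) and with T5985871 (y axis, 1 library, percent), with the line of equal values; colours mark the 115 decreased, the 5 increased and those not called. Decreased microexons lie below the line at DMSO levels from 10 PSI upward, while the increased ones start at 11.2 PSI or lower.

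Whether a microexon fell went with its starting level. No microexon at or below 10 PSI in DMSO could fall by the 10 PSI needed, and 0 of 210 did. Between 30 and 50 PSI in DMSO 22 of 30 fell, between 50 and 70 PSI 18 of 29, and between 70 and 90 PSI 27 of 38. Above 90 PSI, 36 of 198 fell (18.2%).

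Among exons at 10 to 90 PSI in DMSO, 79 of 137 microexons fell (57.7%) and 1 rose, while 485 of 2505 cassette exons fell (19.4%) and 278 rose (11.1%). For all exons in that range the share that fell was 21.3%. By length, the shares that fell were 52.0% of exons up to 9 nt, 69.4% at 10 to 15 nt, 46.7% at 16 to 21 nt and 58.7% at 22 to 27 nt. The share was 29.3% at 28 to 40 nt and 23.7% at 41 to 60 nt. It lay between 17.2% and 22.4% in the 3 classes of longer exons. The shares that rose were at most 3.33% in the microexon classes and between 8.62% and 12.5% above 27 nt. Frame-keeping lengths made up 405 of the 545 microexons and 105 of the 115 that fell. At 10 to 90 PSI in DMSO, 74 of 125 microexons with a length divisible by 3 fell, and so did 5 of 12 with another length.

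**Figure D2:**
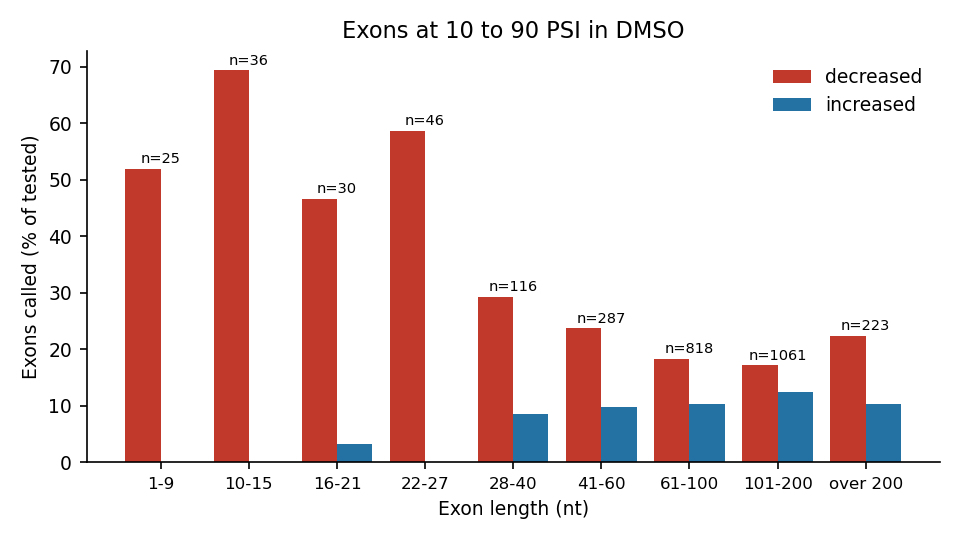
Share of exons called decreased (red) or increased (blue) with T5985871, in percent of the exons tested, by exon length in nt, for exons at 10 to 90 PSI in DMSO; n is the number tested in each class. The decreased share is between 46.7% and 69.4% in the 4 microexon classes and at most 29.3% in each class above 27 nt.

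Mef2d, a transcription factor gene whose microexon was the one built into the screening reporters by the study, showed a lower inclusion of that exon in its own transcripts. Its 21-nt microexon (mm9 chr3:87965703-87965723) stood at 89.5, 88.7 and 88.7 PSI in DMSO replicates A, B and C and at 54.6 PSI with T5985871. It fell by 34.4 PSI, against an SD of 0.49 among the DMSO libraries (n = 3), and no other library of the series was lower. A 138-nt exon of the same gene was at 62.0, 63.4 and 63.7 PSI in DMSO and 60.4 PSI with the compound, and was not called.

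Exons in the other genes that the study followed by RT-PCR did not all change. They were taken by gene and DMSO level, and whether each is the exon assayed there was not checked. The 21-nt microexon of Mast2, a microtubule-associated kinase (mm9 chr4:116006018-116006038), was at 47.0, 48.9 and 33.3 PSI in DMSO and at 18.04 PSI with T5985871. The 15-nt microexon of Ergic3, which cycles between endoplasmic reticulum and Golgi (mm9 chr2:155841113-155841127), was at 33.9, 39.8 and 42.0 PSI in DMSO and at 21.4 PSI with T5985871. The 45-nt exon of Asph, an aspartyl hydroxylase (mm9 chr4:9564806-9564850), was at 70.8, 56.5 and 57.5 PSI in DMSO and at 29.6 PSI with the compound. These 3 exons fell, by 25.1, 17.1 and 31.9 PSI, with the treated value under the whole DMSO range, as the calling rule largely ensures. The 27-nt microexon of Trappc9, a subunit of a vesicle-tethering complex (mm9 chr15:72872607-72872633), was at 29.7, 31.6 and 33.2 PSI in DMSO and at 37.2 PSI with T5985871, a difference of 5.65 PSI that was not called. Exons of 45 and 66 nt in Mgrn1, a ubiquitin ligase, and one of 148 nt in Mast2 differed by 2.17, 5.27 and 6.25 PSI and were not called either. The study describes its assayed exons in Trappc9 and Mgrn1 as independent of Srrm4. It chose the Trappc9 one for its relatively high inclusion in control N2A cells. Zdhhc20 and Rest had no exon that passed the filters at 5 to 95 PSI in DMSO.

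The 15 largest falls were in microexons with DMSO means from 50.6 PSI (Ap1b1) upward. Falls of this size need a high starting level, so the ranking itself largely sets this. The 15-nt microexon of Bbs9, part of the BBSome that carries cargo to cilia, was at 90.5, 90.3 and 97.0 PSI in DMSO and at 30.4 PSI with T5985871, the last from 25 reads. The 14-nt microexon of Cdon, a surface receptor of the Hedgehog pathway, was at 62.0, 60.8 and 79.8 PSI in DMSO and at 7.20 PSI with T5985871. The 24-nt microexon of Herc4, a ubiquitin ligase, was at 86.1, 92.8 and 91.0 PSI in DMSO and at 30.9 PSI with the compound. Each treated value was lower than that of any other library of the series. Dock4, which activates the GTPase Rac, had a 27-nt microexon at 81.4, 78.0 and 79.6 PSI in DMSO and at 22.4 PSI with T5985871. A 4-nt exon of Asap2, a regulator of Arf GTPases, was at 88.3, 92.2 and 93.4 PSI in DMSO and at 36.4 PSI with T5985871, and this exon shifts the frame. The 15-nt microexon of Celsr3, an atypical cadherin of axon guidance, was at 96.6, 96.9 and 100 PSI in DMSO and at 44.1 PSI with T5985871. All 3 fell by over 50 PSI.

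Abi1, a subunit of the WAVE complex that starts actin branching, gave the deepest coverage among the 15 largest falls. Its 15-nt microexon was at 93.6, 93.7 and 92.1 PSI in DMSO and at 48.5 PSI with T5985871, from 906 reads in the treated library. Scyl2, a kinase-like protein of clathrin-coated vesicles, fell from 81.7, 82.3 and 85.5 PSI to 37.3 PSI at a 12-nt microexon. Ap1b1, a subunit of a clathrin adaptor, fell from 56.1, 48.6 and 47.0 PSI to 10.1 PSI at a 9-nt microexon. The others in this group, in Fryl, Gopc, Rundc1, Vav2, Git2 and Synj1, fell by between 40.4 and 49.9 PSI. In 13 of the 15, no other library of the series was lower, and the exceptions were Scyl2 with 1 lower library and Synj1 with 2. The choice of the largest falls favours that rank.

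**Figure D3:**
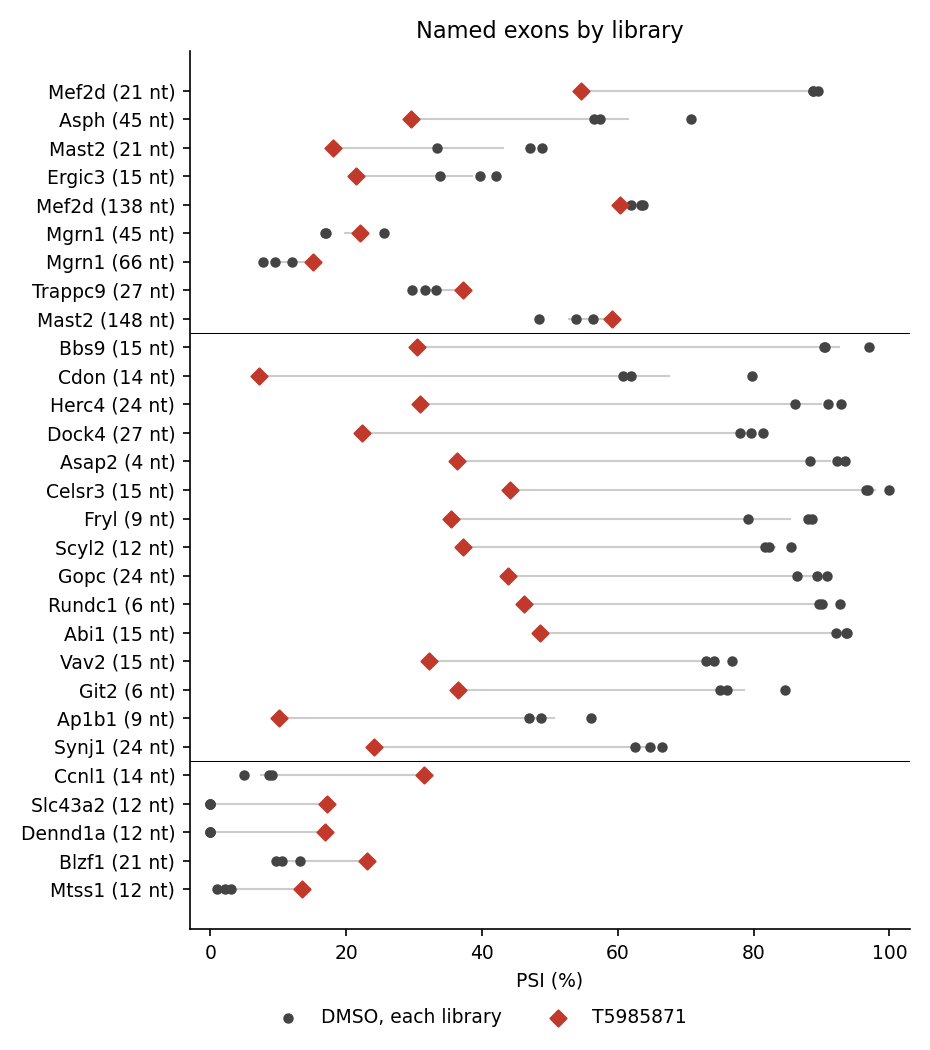
PSI in percent (x axis) of the named exons in each DMSO library (grey points) and in the T5985871 library (red diamonds), with a line from the DMSO mean to the treated value. The upper block holds exons of the assayed genes, the middle block the 15 largest microexon decreases and the lower block the 5 increases. In the middle and lower blocks no treated value falls within the DMSO points, which the calling rule largely ensures.

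The 5 microexons that rose were rarely included in control cells. A 14-nt exon of Ccnl1, a cyclin that works with splicing-associated kinases, was at 9.08, 8.58 and 4.90 PSI in DMSO and at 31.5 PSI with T5985871, the highest of all libraries. Its match in the annotation lay outside the coding sequence. The microexons of Dennd1a, which activates a Rab GTPase, and of the amino acid transporter Slc43a2 were at 0.0 PSI in every DMSO library and at 16.9 and 17.2 PSI with T5985871, the second from 25 reads. Blzf1, a Golgi protein, went from a mean of 11.2 to 23.04 PSI, and Mtss1, which links membranes to actin, from 2.08 to 13.5 PSI.

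Lists of genes known to carry microexons were read against the 21.1% of all tested microexons that fell and their median difference of -0.57 PSI. The lists were chosen with earlier results of these data known, so their counts are not independent of these data. In genes of vesicle trafficking 7 of 19 microexons fell, with a median of -6.71 PSI. Besides Bbs9 and Synj1 these were led by Sh3glb1, a membrane-curving endophilin, from 42.9, 46.7 and 45.7 PSI to 13.7 PSI, and Snx14, a sorting nexin, from 51.6, 46.9 and 42.4 PSI to 18.1 PSI. In genes of adhesion and the cytoskeleton 18 of 44 fell, with a median of -6.27 PSI, among them Asap1, a relative of Asap2, from 92.4, 93.9 and 93.6 PSI to 53.4 PSI. In genes of chromatin and transcription 3 of 12 fell (median -5.57 PSI), namely Mef2d, the Polycomb-associated Asxl2 by 12.4 PSI and the chromatin reader Zmynd8 by 11.2 PSI. In signalling genes 3 of 11 fell (median -5.01 PSI), in Herc4, Scyl2 and Mast2, the last of which is also in the adhesion list. No microexon of these lists rose. Median DMSO levels in the lists were between 29.3 and 47.1 PSI, and how far the starting level set these counts was not tested. The 21.1% includes microexons too low in DMSO to fall by the limit, and at 10 to 90 PSI in DMSO 57.7% of all microexons fell.

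The mean over the 448 microexons that passed in all 34 libraries was 50.5 PSI in each DMSO library and 43.4 PSI with T5985871, the lowest of the 34. For 105 of them the T5985871 library was lower than all others. Other compounds given at the same dose and time stood at 46.0 (T5758020), 46.3 (T5635931) and 47.5 PSI (T5963258). AW00693, given at 5 µM, stood at 44.8 PSI. Each of these is a single library, so no error can be attached to the order. Of the 106 decreased microexons that passed in every library, 77 were at their lowest level with T5985871. They were chosen for a low T5985871 value, which favours that rank, so the count adds no separate support.

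Longer exons fell from a range of starting levels. Of the 1298 decreased cassette exons, 813 stood above 90 PSI in DMSO, as did 50171 of the 54148 tested. At 10 to 50 PSI in DMSO more cassette exons rose than fell, with 132 of 824 up and 88 down. The share that fell was 23.6% of those at 50 to 90 PSI, where 8.7% rose, 10.3% at 90 to 98 PSI and 0.678% above 98 PSI. A 33-nt exon of Acbd5, a peroxisomal protein that binds acyl-CoA, was at 70.8, 70.7 and 72.0 PSI in DMSO and at 14.8 PSI with T5985871. A 155-nt exon of the carnitine transporter Slc22a5 was at 93.8, 91.5 and 92.4 PSI in DMSO and at 33.97 PSI with the compound. Both were the lowest of the libraries that passed. A 112-nt exon of the kinase Dmpk had the largest fall, from 97.1, 71.4 and 100 PSI to 26.9 PSI, with an SD of 15.7 in DMSO. Exons of Reep6 and Fam113a fell by 48.8 and 48.3 PSI.

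Fewer cassette exons rose. A 45-nt exon of the myosin Myo18a was at 36.3, 36.1 and 35.0 PSI in DMSO and at 87.2 PSI with T5985871, from 44 reads. A 143-nt exon of Pop5, a protein of RNase P, was at 49.6, 38.0 and 40.6 PSI in DMSO and at 80.6 PSI with T5985871, from 2014 reads. An exon of Flnc, which crosslinks actin, was at 62.4, 63.5 and 57.6 PSI in DMSO and at 100 PSI with the compound. Exons of Zcchc6 and 2310037I24Rik rose by 37.3 and 36.0 PSI.

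Introns that changed were mainly more retained. Of 80751 introns measured, 724 in 600 genes were more retained (0.897%) and 100 in 88 genes less retained (0.124%). Of the 724, 452 stood at or below 5 PSI in DMSO, as did 77311 of all introns tested. The share more retained was 0.282% of introns at up to 1 PSI in DMSO, 2.22% at 1 to 5 PSI, and 6.31% at 5 to 10 PSI. An intron below 10 PSI in DMSO could not fall by the 10 PSI needed. At 10 to 30 PSI 123 of 1115 introns were more and 39 less retained. Above 30 PSI the direction turned. At 30 to 50 PSI 33 of 184 introns were less and 13 more retained, and above 50 PSI 28 of 143 were less and 10 more. The more retained introns had a median length of 530.0 nt, against 1247 nt for all introns tested, and the less retained introns 410.5 nt. In 92 genes at least 2 introns were more retained.

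Single introns reached high levels. An intron of Acbd4 (429 nt) was at 11.1, 17.1 and 19.1 PSI in DMSO and at 81.8 PSI with T5985871. An 80-nt intron of Parp10, an ADP-ribosyltransferase, was at 1.27, 2.33 and 1.49 PSI in DMSO and at 58.1 PSI with the compound. A 138-nt intron of the interleukin receptor Il17rc went from 0.0, 4.67 and 6.4 PSI to 56.2 PSI. Each was the highest of the libraries that passed, from 30, 34 and 42 reads in the treated library. Introns of Pigv and Mtmr14 rose by 46.6 and 45.0 PSI. Celsr3, whose microexon is described above, had 9 of 29 introns more retained, and the chloride channel gene Clcn2 had 5 of 15. Among the less retained, the 3 measured introns of Taf1d, a subunit of a factor of RNA polymerase I, all fell. An intron of Zfp187 went from 31.7, 36.8 and 50.8 PSI to 3.70 PSI, and those of 2310014L17Rik and Bsg fell by 42.5 and 38.0 PSI with DMSO SDs of 15.1 and 24.96. Without DMSO replicate C the Bsg intron fell by 23.6 PSI.

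Alternative splice sites were called in both directions. Of 15518 alternative 3′ sites 187 fell (1.21%) and 219 rose (1.41%), and of 11573 alternative 5′ sites 176 fell (1.52%) and 210 rose (1.81%). Without DMSO replicate B the 3′ sites were 205 lower and 198 higher. Cask, a synaptic scaffold kinase, used the 3′ site 15 nt from its alternative at 37.0, 37.5 and 34.7 PSI in DMSO and at 86.7 PSI with T5985871. Synj1 showed a 3′ site, 9 nt from its alternative, at 18.7, 11.3 and 7.79 PSI in DMSO and at 48.5 PSI with the compound, beside the fall of its microexon. Sites in Dopey1 and Atrip rose by 47.0 and 37.0 PSI. The stress kinase Mapk8 had a 3′ site, 5 nt from its alternative, at 81.2, 67.5 and 85.9 PSI in DMSO and at 44.1 PSI with T5985871, and a site in Ulk3, a relative of autophagy kinases, fell by 43.4 PSI. Among 5′ sites, Glt8d1 fell from 95.5, 100 and 78.6 PSI to 31.5 PSI, and Entpd4 exchanged one site (60.2 to 22.97 PSI) for another (38.0 to 77.0 PSI).

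Events in genes that encode splicing factors were counted beside all events, without matching the mix of event classes. Over 115 measured genes for SR proteins, hnRNP proteins, neural regulators, spliceosome subunits and splicing kinases, 20 of 1987 events fell (1.01%) and 10 rose (0.503%), beside 1.15% and 0.949% of all events. Hnrnph3 skipped a 139-nt exon more often, from 78.8, 80.2 and 80.6 PSI to 50.7 PSI, at 1054 reads. Srsf5 raised an alternative 5′ site from 28.2, 24.5 and 23.2 PSI to 48.9 PSI, at 4931 reads. Ptbp2, the neural relative of Ptbp1, had a 34-nt exon at 83.2, 87.0 and 81.6 PSI in DMSO and at 66.2 PSI with T5985871. The kinase Clk2 fell by 20.9 PSI at an 85-nt exon, and Srrm1, an SR-related cofactor, by 20.9 PSI at a 42-nt exon. Hnrnpk exchanged 5′ sites, with one up by 35.6 PSI and one down by 31.4 PSI, from 64 reads.

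Gene expression was given as RPKM, read counts scaled to transcript length and to library size, with 1 value for T5985871 and 1 value into which the authors had merged the DMSO replicates. No spread can therefore be attached to a gene's ratio, and a gene is called changed below only in the sense of a ratio over 2-fold, with 0.5 RPKM added to both values, at more than 5 RPKM in either condition. Of 9846 genes above that level, 596 were higher (6.05%) and 828 lower (8.41%) with T5985871. The median log2 ratio over all of them was -0.20. The balance between rises and falls depends on the scaling and on the limits: with that shift removed 864 were higher and 457 lower, at a minimum of 1 RPKM 1310 and 1159, with no minimum 1593 and 1318, and past 3-fold 301 and 145. A gene that passed 5 RPKM only with T5985871 lay lower in DMSO by that choice. Gene lists are therefore counted below over members above 5 RPKM in DMSO. Of all 9397 genes above that DMSO level, 323 were higher (3.44%) and 828 lower (8.81%), with a median log2 ratio of -0.24. Among the 596 higher genes, counted at more than 5 RPKM in either condition, 447 had their highest value of the 28 conditions with T5985871. Among the 828 lower genes, 522 had their lowest. Choosing genes by their T5985871 value favours such ranks. In a bulk culture, fewer cells of a type and less RNA per cell cannot be told apart.

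The genes of both microexon activators were lower, and Rbm38, an RNA-binding protein known as a p53 target, was higher. Srrm4 was at 10.4 RPKM in DMSO and 3.34 RPKM with T5985871, a log2 ratio of -1.51. Srrm3 went from 18.5 to 6.56 RPKM, a log2 ratio of -1.43. Rbm38 went from 40.6 to 271 RPKM, a log2 ratio of 2.72. The T5985871 value was the lowest of the 28 conditions for both activators and the highest for Rbm38. Ptbp1 (476 and 591 RPKM), Qk (65.0 and 53.1 RPKM) and Rbfox2 (56.5 and 42.4 RPKM) stayed within 2-fold, and Rbfox3 was listed at 0 RPKM in both.

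Neural splicing regulators as a list were lower in 10 of 19 expressed members and higher in 0, with a median log2 ratio of -1.06 beside -0.24 over all genes above 5 RPKM in DMSO, of which 8.81% were lower. Celf3, an RNA-binding protein of the nervous system, went from 105 to 24.5 RPKM. The Elavl genes encode AU-rich-element-binding proteins, and all 4 were lower: Elavl4 went from 131 to 34.3 RPKM, Elavl2 from 123 to 47.2 RPKM, Elavl3 from 22.4 to 9.43 RPKM and Elavl1 from 116 to 54.2 RPKM. Rbfox1 (5.07 to 1.94 RPKM), Nova2 (6.43 to 2.41 RPKM), Celf6, Msi1 and Msi2 were lower as well. With the median shift removed, Elavl3, Rbfox1 and Elavl1 were no longer past 2-fold. Celf3, Nova2, Celf6, Msi1 and Msi2 were not rerun in that way, and the count of 10 was not redone. By contrast, 0 of 15 SR protein genes and 0 of 24 hnRNP genes were past 2-fold, with medians of -0.03 and -0.07. Among 48 spliceosome genes Dhx38, Puf60 and Sf3b4 were higher and Prpf31 lower.

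Levels with some of the other compounds that the study classed as inhibitors of microexon splicing were set side by side. Further inhibitors in the series were not, so the values do not describe inhibitors in general. Over all 26 other compounds the median was 11.3 RPKM for Srrm4 and 38.1 RPKM for Rbm38. Srrm4 was at 5.93 RPKM with AW00693, 7.51 with T5635931, 8.02 with T5758020 and 10.2 with T5963258, beside 3.34 with T5985871. Rbm38 was at 160, 149, 79.1 and 58.3 RPKM in the same order, beside 271 RPKM. The values are single ones, and the doses of AW00693 and T5985871 differ.

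**Figure D4:**
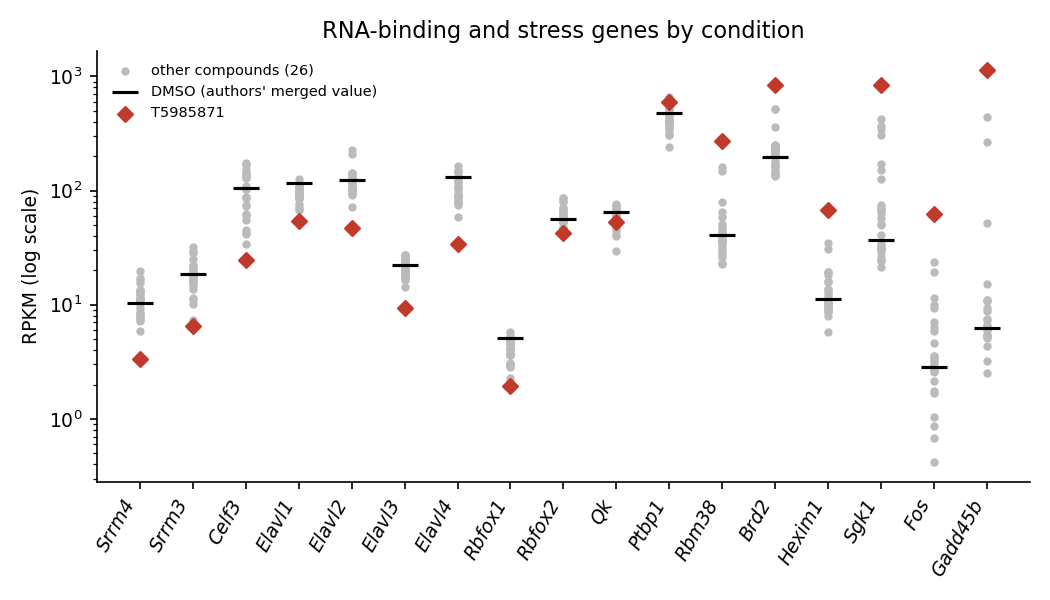
RPKM (y axis, log scale) of RNA-binding and stress genes in the T5985871 library (red diamonds), in DMSO (black bars, the authors' merged value) and with the 26 other compounds (grey points). T5985871 lies below every grey point for Srrm4, Srrm3, Celf3, Rbfox1 and the 4 Elavl genes, and above every grey point for Rbm38, Brd2, Hexim1, Sgk1, Fos and Gadd45b.

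The largest rise by log2 ratio was in Gadd45b. This gene, which encodes a stress sensor acting on MAP kinase pathways, went from 6.21 to 1128 RPKM, a log2 ratio of 7.39, and its relatives Gadd45g (7.88 to 67.7 RPKM) and Gadd45a (12 to 57.5 RPKM) were higher too. Sgk1, a kinase induced by serum and glucocorticoids, went from 36.7 to 840 RPKM. Sertad1, a regulator of E2F, went from 6.26 to 145 RPKM, and the vasoactive peptide gene Adm from 0.98 to 30.4 RPKM. Gadd45b was also at 443 RPKM with AW00693 and at 265 RPKM with T5635931. Of 8 immediate-early genes above 5 RPKM in DMSO, 3 were higher and 0 lower, beside 3.44% higher among all such genes: Ier5 (5.40 to 25.7 RPKM), Nr4a1 (6.21 to 15.4 RPKM) and Junb (20.2 to 43.9 RPKM). Fos (2.87 to 62.3 RPKM), Arc (4.55 to 29.4 RPKM) and Klf4 (1.99 to 10.9 RPKM) passed the minimum only with T5985871 and are given as values. Of 13 feedback genes of MAPK signalling 2 were higher, Ier3 (5.57 to 38.7 RPKM) and Phlda1 (5.40 to 32.3 RPKM), with a list median of -0.14.

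Genes around the elongation kinase P-TEFb and the BET proteins were higher in 3 of 10 and lower in 0 (median log2 ratio 0.57), beside 3.44% higher and a median of -0.24 over all genes above 5 RPKM in DMSO. Hexim1, an inhibitor of P-TEFb, went from 11.2 to 67.7 RPKM, the acetyl-lysine reader Brd2 from 196 to 842 RPKM, and the kinase subunit Cdk9 from 27.8 to 63.6 RPKM. Each was at its highest of the 28 conditions. Hexim1 was also at 34.6 RPKM with AW00693 and 30.9 RPKM with T5635931, and Brd2 at 521 and 512 RPKM. Of 6 targets of BMP and TGF-β above 5 RPKM in DMSO, 2 were higher, Id2 from 98.5 to 389 RPKM and Id3 from 61.4 to 179 RPKM. Bambi, below that level in DMSO, went from 2.73 to 9.29 RPKM. Hey1, a Notch target, went from 8.21 to 45.2 RPKM.

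In each of the other stress lists given here, the share of higher genes was above the 3.44% among all genes above 5 RPKM in DMSO. The share of lower genes was above the 8.81% of all such genes in the integrated stress response alone. These shares rest on small counts. In the integrated stress response 3 of 23 genes were higher and 4 lower: Ppp1r15a, which directs the dephosphorylation of an initiation factor, went from 16.2 to 107 RPKM, while the enzyme gene Pck2 went from 31.2 to 10.7 RPKM and Chac1 from 35.6 to 15.8 RPKM. In the unfolded protein response 4 of 20 were higher, with the chaperone Hspa5 from 296 to 712 RPKM, and Xbp1 was lower (39.9 to 12.7 RPKM). Of p53 targets 2 of 15 were higher, with Cdkn1a from 11.6 to 28.2 RPKM. Of hypoxia genes 2 of 22 were higher, Ddit4 and Kdm3a, and Ankrd37, below 5 RPKM in DMSO, went from 4.31 to 36.9 RPKM. Among 17 NRF2 targets Hmox1 and both ferritin genes were higher and Srxn1 lower (12.6 to 2.63 RPKM).

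Lipid genes were lower where they passed 2-fold, read against 8.81% lower and a median of -0.24 over all genes above 5 RPKM in DMSO. Of 12 genes of fatty acid synthesis 4 were lower (median log2 ratio -0.81): the elongase Elovl6 went from 25.96 to 7.56 RPKM, the desaturases Scd2 from 394 to 154 RPKM and Fads2 from 174 to 78.6 RPKM, and the regulator Srebf1 from 88.0 to 40.8 RPKM. Of 25 sterol genes 4 were lower (median -0.28), led by Insig1 (48.8 to 14.4 RPKM). Of 30 G2/M genes 1 was higher and 1 lower, and of 30 S-phase genes 2 were higher, among them the licensing factor Cdt1 (76.5 to 309 RPKM), and 1 lower, with a median of -0.38 in both lists. The lower genes were Hmmr, which acts on the mitotic spindle (53.96 to 24.5 RPKM), and the transcription factor E2f2 (12.8 to 5.63 RPKM). With pseudogenes and small RNA genes left out, the largest fall by log2 ratio was in Cdkn3, a phosphatase of cell-cycle kinases, from 18.02 to 1.79 RPKM. Krcc1 went from 52.2 to 7.16 RPKM, the cannabinoid receptor Cnr1 from 38.4 to 6.31 RPKM, and the survival gene Bcl2l2 from 21.5 to 3.49 RPKM.

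Markers of the line were expressed in both conditions. Of 15 neuroblast markers 13 were expressed above 5 RPKM. Ddc, Gata2 and Gata3 were higher and Elavl4 lower, with Ddc, which makes dopamine and serotonin, going from 5.24 to 29.2 RPKM. Among neuronal genes Mapt (50.2 to 16.96 RPKM), Eno2 and Map2 were lower, and Nefh (39.4 to 110 RPKM) and Vgf were higher. Summed levels of 8 epithelial markers were 0.24 and 0.66 RPKM, and those of 8 blood markers 0.66 and 5.34 RPKM, of which Cd68 gave 5.2 RPKM with T5985871. Of 11 glial markers Cnp alone exceeded 5 RPKM in either condition, and of 11 mesenchymal markers Fn1 alone did (49.0 and 33.1 RPKM).

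Not all of the largest rises were in well-characterised coding genes. An antisense gene on the strand opposite to Clasp1 went from 0.24 to 44.4 RPKM, and a library kit that does not mark strand cannot separate the pair. The lincRNA RP23-81C12.1 went from 36.2 to 862 RPKM, and Gm10961 from 0.25 to 12.4 RPKM. RP23-81C12.1 overlaps or lies close to Gm42418 on the same strand and to AY036118 and CT010467.1 on the opposite one. Whether it shares reads with them was not tested. The histone gene Hist1h2ai went from 0.84 to 22.2 RPKM. Chosen after its values were seen, the family of replication histone genes was higher in 4 of the 7 members above 5 RPKM in DMSO and lower in 0. Reads are easily shared between these near-identical genes, and their transcripts mostly lack the polyA tail by which the libraries were made. The 18 expressed mitochondrial genes had a median of 0.74, with 3 higher, and ribosomal protein genes 0.26 for the large and 0.28 for the small subunit. The part of these shifts in the other ratios was not tested. The largest falls also held non-coding transcripts, such as RP24-288C12.6 (104 to 14.3 RPKM) and the lincRNA RP23-167K23.1 (18.5 to 3.15 RPKM).

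Gene span went with the ratios. Split into 5 groups of equal size by the distance from start to end in the annotation, protein-coding genes had median log2 ratios of 0.03, -0.11, -0.20, -0.31 and -0.41 from the shortest to the longest. The share of higher genes was 11.3% in the shortest group (median span 4.93 kb) and 0.869% in the longest (112 kb). The share of lower genes was 5.27% and 10.6%. These groups hold genes above 5 RPKM in either condition. A gene could thus enter through its T5985871 value alone, which adds to the shares of higher genes. The part of gene span in the ratios of the genes named above was not tested.

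**Figure D5:**
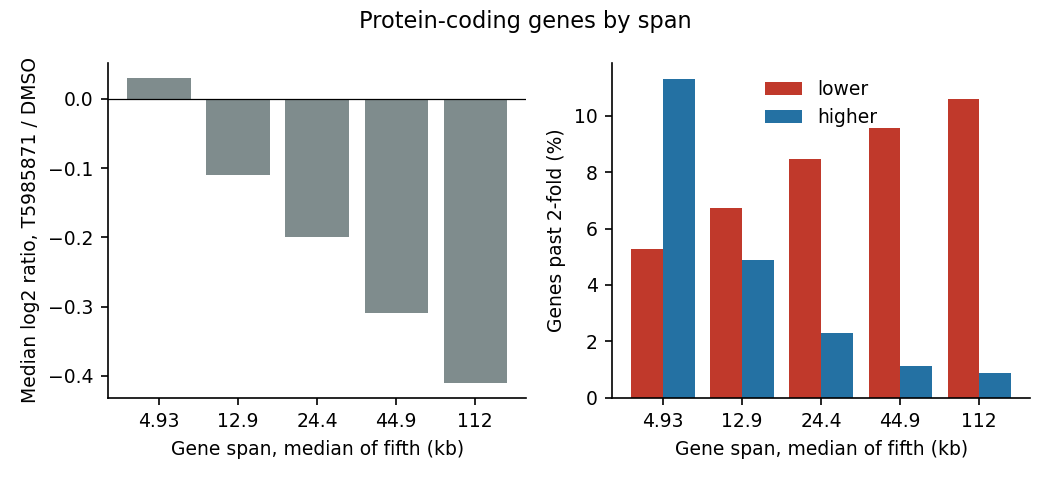
Left, median log2 ratio of RPKM with T5985871 over DMSO for protein-coding genes in 5 groups by gene span (x axis, median span in kb); right, the percent of genes in each group past 2-fold, higher in blue and lower in red. The median goes from 0.03 to -0.41 and the share of higher genes from 11.3% to 0.869% with span. Genes above 5 RPKM in either condition are counted.

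Genes that held a changed event were compared with the rest on RPKM. Of 98 expressed genes with a decreased microexon, 0 were higher and 6 lower, with a median log2 ratio of -0.25, and 321 genes with measured microexons but no call had a median of -0.33. Genes with a more retained intron had a median of -0.32 (52 of 444 lower), and genes with a less retained intron 0.0 (8 of 66 lower). In genes with measured introns but no call the median was -0.23 (535 of 6959 lower), beside 8.41% lower among all genes tested. Celsr3 itself went from 17.3 to 11.7 RPKM. A transcript annotated as a separate gene over the Celsr3 locus on the same strand, RP24-571H12.6, went from 1.29 to 47.5 RPKM, and reads from exons that both cover cannot be told apart.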

How the data were processed

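RNA of N2A cells was sequenced by the authors as polyA+ libraries. The deposited percent spliced in (PSI) values were made by the authors with vast-tools from junction reads on mm9, and each comes with a quality string that holds corrected inclusion and exclusion reads. For expression, the authors deposited 1 RPKM value per gene and condition, computed from Salmon abundances with the DMSO replicates merged. The submitters' processing notes name Salmon 0.10.2 and edgeR. The authors' fold changes, p-values and splicing calls were not used, and 0 value columns lacked a sample or condition.

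Groups followed the treatment labels, and the dose came from the study's compound list. Filters applied in the T5985871 library and at least 2 DMSO libraries. Exons and splice sites needed sufficient coverage, and introns 15 reads and a balance p above 0.05. Exons also needed balanced reads, except events that vast-tools types as microexons, which were exempt. Calls used 2000 seeded beta draws per library, pooled over the DMSO libraries (Python 3.11.15, numpy 2.4.6), and were tested on simulated reads. Gene lists were counted over members above 5 RPKM in DMSO, a choice made after seeing the data. The reference site of each alternative splice site was left out, since it mirrors the others.

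Events named were the exons of 8 assayed genes at 5 to 95 PSI, the 15 largest microexon decreases, the 5 largest other calls per class and direction, the 10 largest in splicing regulators, and up to 4 per list. They needed 20 reads in every library, except the assayed and the listed ones. Genes named were 12 RNA-binding genes, up to 4 changed members per list and the 10 largest rises and falls, and text examples were drawn from these. Members and lists were chosen with earlier results of these data known. Alternatives changed the limits, the filters, the DMSO libraries used, the pseudocount and the scaling.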

Additional observations from a re-analysis of the deposited data

How the results depend on the processing

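Of the 83 events named, each kept its call and direction in the 245 refits without 1 DMSO library that its coverage allowed. In those refits the decreased microexons numbered 112 to 119, the decreased cassette exons 1267 to 1328 and the more retained introns 602 to 738, and the other splicing counts stayed within 1.5 times their values. No paired analysis was possible because T5985871 has 1 library, which shares only the replicate letter A with DMSO. At a limit of 15 PSI, 3 microexons rose, 619 cassette exons fell and 195 rose, 366 introns were more and 63 less retained, 93 alternative 3′ sites fell and 112 rose, and 99 alternative 5′ sites fell and 113 rose. With a posterior above 0.99, 351 introns were more and 60 less retained, and 110 alternative 3′ sites fell and 131 rose. Without the balance filter 9 microexons rose, and with microexons taken as up to 15 nt 57 fell. With draws averaged over the DMSO libraries, an alternative chosen after seeing the data, 168 introns were less retained. The higher genes numbered 1310 against 1159 lower at a minimum of 1 RPKM, 1593 against 1318 with no minimum, 864 against 457 after centring on the median and 301 against 145 past 3-fold, so the balance of 596 higher to 828 lower turned under each. With a minimum of 5 RPKM in DMSO alone, also chosen after seeing the data, 323 were higher. The alternative 3′ sites turned as well without DMSO replicate B, to 205 lower and 198 higher. No event or gene named changed direction under the alternatives run for it. The largest intron rises rest on 30 to 42 reads in the treated library, and no alternative replaces a second T5985871 culture.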
